A study of Rattus norvegicus with 20 samples.

Results

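The genes described here are 40 genes of cell division, 22 that act in mitosis and 18 that act in DNA replication, followed in INS-1 cells, an insulin-secreting line derived from a rat insulinoma. They were taken by name from a list that was chosen with earlier results of these data known. A gene counted as measured where the array annotation gave a probe set with exactly 1 symbol, the brightest probe set standing for the gene. By that rule 37 of the 40 were measured, 20 of mitosis and 17 of replication, among 18166 genes measured in all. Cenpe, Nek2 and Rrm1 had no such probe set, and their levels are not analysed here. All 37 lay above the median probe set, at a mean log2 intensity of 9.08 (Gins2) or more against a probe-set median of 7.47, and 4 of them (Ccnb2, Mcm3, Mcm4 and Rrm2) had more than 1 probe set.

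The study asked whether C4b-binding protein (C4BP), a soluble inhibitor of complement, alters the effect on beta cells of islet amyloid polypeptide (IAPP), the peptide that forms islet amyloid. The cells were kept as 5 clones for 10 passages, plated at 100000 per well, grown for about 48 h to 70% confluency and challenged, and RNA was taken after 10 h for Affymetrix Rat Gene 2.0 arrays. Each of 4 title groups held 5 arrays. The conditions were 77 uM IAPP with 0.6 uM C4BP, 0.6 uM C4BP without IAPP, 77 uM IAPP, and 1% DMSO, the solvent of IAPP. The arrays are titled C4BP, C4BPD, IAPP or DMSO, each numbered 1 to 5. Each title also opens with a running number from 1 to 20. In that order the 4 arrays of a replicate number, 1 per group, follow each other. What the running number orders is not stated. The titles do not spell out which of C4BP and C4BPD held IAPP. Set against the 4 conditions, C4BP likely stands for both agents and C4BPD for C4BP without IAPP, and the groups are called by their titles here. Whether the wells with C4BP but no IAPP held DMSO is not stated. A separate treatment field, which gives doses of 300 ug/ml for both agents, fits the title in 3 of the 20 arrays and in 2 of the 10 titled IAPP or DMSO, so every comparison below holds for the titles alone. The cells are 1 tumour line in culture, and the labels do not say whether a number from 1 to 5 is a clone, so p-values measure the spread between these arrays, which may in part be technical.

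Cells that divide first duplicate their DNA in S phase and then segregate it in mitosis, and each task has its own set of genes. Replication starts when the Mcm helicase is loaded on origins and is fired with cyclin E and its kinase, and many of these genes are transcribed by E2F factors around the start of S phase. Mitosis runs on cyclin B with Cdk1, on kinetochore and checkpoint proteins and on spindle motors, whose genes are held off by the DREAM complex and switched on late, largely through the CHR and CCAAT elements of their promoters. Beta-cell lines such as INS-1 cycle in culture, and in a bulk sample fewer cycling cells and less RNA per cycling cell cannot be told apart.

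Promoter sequence was set beside the mitosis and the replication genes because the elements named above are known from promoters of both kinds. RefSeq promoter windows of build GRCr8, 250 bases before to 50 after each start, were found for 33 of the 40 genes, 19 of mitosis and 14 of replication. Cenpe, Nek2 and Rrm1, whose levels were not measured, are among them, so the shares below are not those of the measured genes. Both strands were searched for the CHR letters TTTGAA and TTCGAA, for CCAAT, and for E2F letters TTTCGCGC, TTTGGCGC and TTTCCCGC. A CHR match stood in 12 of 19 mitosis promoters (63.2%) and in 4 of 14 replication promoters (28.6%), with 19.7% of all 33469 promoters of this length holding one. CCAAT stood in 84.2% of the mitosis promoters and 71.4% of the replication promoters, with 37.5% over all promoters. An E2F match stood in 1 of 19 mitosis promoters (5.26%, Cdk1) and in 9 of 14 replication promoters (64.3%), with 1.72% over all promoters. Some matches share letters, as in Mcm7, where an E2F match runs into CCAAT, and in Mcm6 and Gins1, where 2 E2F matches on opposite strands overlap. A match is a string of letters and not a known site.

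The windows below run from 150 bases before the start to 30 after it, read along the gene from 5′ to 3′, with matches on either strand in capitals. The first 5 are the mitosis genes that passed the test in a comparison, shown because their levels carry the result. They lie in GRCr8 with Kif23 at chr8:71320555-71320734 (minus strand), Cenpf at chr13:103760857-103761036 (minus strand), Ttk at chr8:93634489-93634668 (plus strand), Bub1b at chr3:126016917-126017096 (plus strand) and Ccnb1 at chr2:33655196-33655375 (minus strand). Ccnb1 has a pair of CCAAT matches and no CHR match in its window, Bub1b has CHR without CCAAT, and the other 3 have both.
Kif23: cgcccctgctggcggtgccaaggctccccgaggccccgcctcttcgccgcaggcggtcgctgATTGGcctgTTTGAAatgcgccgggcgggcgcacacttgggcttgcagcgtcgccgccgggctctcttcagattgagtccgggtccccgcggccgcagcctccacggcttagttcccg
Cenpf: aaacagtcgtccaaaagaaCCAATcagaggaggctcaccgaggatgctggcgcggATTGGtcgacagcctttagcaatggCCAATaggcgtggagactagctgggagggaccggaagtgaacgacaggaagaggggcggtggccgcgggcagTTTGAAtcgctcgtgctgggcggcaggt
Ttk: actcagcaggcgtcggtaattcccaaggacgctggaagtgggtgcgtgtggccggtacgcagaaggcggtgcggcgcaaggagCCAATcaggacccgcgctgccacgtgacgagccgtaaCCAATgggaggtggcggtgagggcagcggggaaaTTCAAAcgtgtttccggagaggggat
Bub1b: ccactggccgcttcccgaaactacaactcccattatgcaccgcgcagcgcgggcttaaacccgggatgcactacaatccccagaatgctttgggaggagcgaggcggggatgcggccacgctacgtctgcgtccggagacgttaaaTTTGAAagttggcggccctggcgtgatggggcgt
Ccnb1: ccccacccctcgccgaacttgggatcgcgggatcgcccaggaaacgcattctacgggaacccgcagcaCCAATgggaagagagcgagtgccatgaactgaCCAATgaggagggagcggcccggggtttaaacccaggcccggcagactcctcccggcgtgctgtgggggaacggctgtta

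The next 4 are replication genes, shown for the E2F letters that the windows above lack. They lie in GRCr8 with Mcm3 at chr9:30733717-30733896 (minus strand), Mcm6 at chr13:42404323-42404502 (minus strand), Mcm7 at chr12:22163149-22163328 (minus strand) and Gins1 at chr3:160184770-160184949 (plus strand). Mcm3, Mcm6 and Mcm7 encode subunits of the replicative helicase and Gins1 a subunit of the GINS complex that activates it.
Mcm3: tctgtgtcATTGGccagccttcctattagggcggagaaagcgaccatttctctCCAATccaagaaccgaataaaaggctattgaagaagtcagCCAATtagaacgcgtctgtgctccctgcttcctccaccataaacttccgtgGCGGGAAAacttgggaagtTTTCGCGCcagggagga
Mcm6: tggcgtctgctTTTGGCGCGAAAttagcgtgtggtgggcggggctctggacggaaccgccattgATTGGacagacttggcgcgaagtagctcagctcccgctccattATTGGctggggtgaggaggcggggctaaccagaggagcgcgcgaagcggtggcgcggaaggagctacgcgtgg
Mcm7: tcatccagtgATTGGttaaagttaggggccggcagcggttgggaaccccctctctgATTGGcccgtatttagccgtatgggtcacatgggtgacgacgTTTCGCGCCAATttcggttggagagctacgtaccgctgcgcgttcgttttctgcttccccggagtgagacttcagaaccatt
Gins1: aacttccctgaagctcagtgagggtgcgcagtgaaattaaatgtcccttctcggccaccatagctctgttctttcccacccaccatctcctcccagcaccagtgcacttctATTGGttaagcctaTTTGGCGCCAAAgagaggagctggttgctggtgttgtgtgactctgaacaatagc

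The deposited values are linear intensities with array medians between 171 and 183 over non-control probe sets, and any 2 arrays correlated at 0.985 to 0.996. All 7 measured beta-cell markers of 8 lay above the median probe set, as did 2 of 3 markers of other islet cells (Gcg and Sst) and 2 of 5 fibroblast markers. None of 4 immune markers (Ptprc, Cd68, Lyz2, Cd3e) and not the 1 measured endothelial marker did. A test below is limma's moderated test over all 20 arrays with Benjamini-Hochberg adjustment over 18166 genes, and a gene is said to have risen or fallen at an adjusted p under 0.05. Differences are log2 values of the group named first minus the second.

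C4BPD against IAPP sets apart the 2 conditions that, on the likely reading of the titles, held 1 agent each. Here 5 of the 20 mitosis genes rose and none fell, while none of the 17 replication genes passed the test in either direction. Over all genes 5.46% passed, 3.64% rose and 1.82% fell. As the list was chosen with earlier results of these data known, its counts are a description. The 5 were Kif23, Cenpf, Ttk, Bub1b and Ccnb1, and their differences of 0.14 to 0.26 on the log2 scale are changes of 1.10 to 1.20 times. At an unadjusted p under 0.05 stood 13 members and 18.2% of all genes. The median difference was 0.099 over the mitosis genes and -0.0098 over the replication genes, with -0.014 over all genes.

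Ccnb1, cyclin B1, is the partner that activates Cdk1 at entry into mitosis. Ccnb1 read 4079, 4181, 4332, 4479 and 4131 in the C4BP arrays and 4242, 4117, 4351, 4353 and 4395 in the C4BPD arrays, against 3893, 3847, 3905, 3835 and 3942 in the IAPP arrays and 4073, 4352, 4235, 3852 and 4122 in the DMSO arrays. All C4BPD arrays lay above all IAPP arrays, while the DMSO arrays overlapped both. The means were 4292 ± 113 in C4BPD and 3885 ± 43.7 in IAPP (SD, n = 5 each), and the difference was 0.14 on the log2 scale (SE 0.037, 95% CI 0.066 to 0.22, 1.10-fold), with limma adjusted p = 0.0256. The call was lost without C4BPD array 3, 4 or 5 or IAPP array 2 or 4 (adjusted p = 0.0609 to 0.0705). The other genes of this engine did not pass the test: Cdk1, its kinase, differed by 0.12 (adjusted p = 0.0822), Ccna2, cyclin A2, by 0.097 and Ccnb2, cyclin B2, by -0.018. Cdc20, which turns on the ubiquitin ligase that ends mitosis, differed by 0.062.

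Ttk and Bub1b encode proteins of the spindle checkpoint, which delays chromosome separation until every kinetochore is attached. Ttk read 925, 868, 1076, 1015 and 921 in the C4BP arrays and 884, 1140.5, 1076, 1037 and 1059 in the C4BPD arrays, against 847, 833, 835, 864 and 949.6 in the IAPP arrays and 867, 969, 926, 978 and 954 in the DMSO arrays. In C4BPD 4 of 5 arrays exceeded every IAPP array, whereas array 1 lay among the IAPP arrays, so that the groups overlapped. Ttk averaged 1039 ± 95.1 in C4BPD and 866 ± 48.4 in IAPP (SD, n = 5 each), a difference of 0.26 on the log2 scale (SE 0.065, 95% CI 0.12 to 0.40, 1.20-fold) with limma adjusted p = 0.0212. It did not pass without C4BPD array 2, 3 or 5 or IAPP array 2 or 3 (adjusted p = 0.0520 to 0.0653).

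Bub1b read 1041, 951, 1091, 1004 and 951 in the C4BP arrays and 1090.2, 1069.8, 1102, 1035 and 1036 in the C4BPD arrays, against 1007, 892, 990.5, 931 and 919 in the IAPP arrays and 994, 1009, 997, 990.4 and 967 in the DMSO arrays. For Bub1b the lowest C4BPD array was above the highest IAPP array, and above the highest DMSO array as well. The means were 1067 ± 30.6 in C4BPD and 948 ± 49.0 in IAPP (SD, n = 5 each), and the difference was 0.17 on the log2 scale (SE 0.043, 95% CI 0.081 to 0.26, 1.13-fold), limma adjusted p = 0.0214. Without C4BPD array 3 or IAPP array 2, 4 or 5 it missed the threshold (adjusted p = 0.0507 to 0.0729). Bub1, a kinase of the same checkpoint, differed by 0.024 (95% CI -0.072 to 0.12), with 3405 ± 248 in C4BPD and 3343 ± 83.4 in IAPP.

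Cenpf encodes a large kinetochore protein that accumulates in G2 and mitosis. Cenpf read 1490.1, 1525, 1587, 1549.9 and 1684 in the C4BP arrays and 1537, 1723, 1663, 1692 and 1749 in the C4BPD arrays, against 1301, 1386, 1363, 1499.8 and 1563 in the IAPP arrays and 1436, 1733, 1499, 1695 and 1668 in the DMSO arrays. The groups overlapped by 1 array each, C4BPD array 1 lying below IAPP array 5. Cenpf averaged 1673 ± 82.7 in C4BPD and 1422 ± 107 in IAPP (SD, n = 5 each), and the difference was 0.24 on the log2 scale (SE 0.059, 95% CI 0.11 to 0.36, 1.18-fold), limma adjusted p = 0.0212. The threshold was missed without C4BPD array 2 or 5 or IAPP array 1, 2 or 3 (adjusted p = 0.0538 to 0.0653). Among the mitotic kinases Plk1 differed by 0.074, Aurkb by 0.062 and Aurka by 0.041, and none passed the test.

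Kif23 encodes a kinesin of the central spindle that is needed for cytokinesis, and it was the member with the lowest adjusted p. Kif23 read 1267, 1254, 1343, 1333 and 1257 in the C4BP arrays and 1239.7, 1389, 1351, 1336 and 1301 in the C4BPD arrays, against 1192, 1148, 1168, 1163 and 1184 in the IAPP arrays and 1201, 1223, 1211, 1152 and 1257 in the DMSO arrays. Every C4BPD array and every C4BP array lay above every IAPP array, and the IAPP values were the most tightly grouped. The means were 1323 ± 56.4 in C4BPD and 1171 ± 17.4 in IAPP (SD, n = 5 each), with a difference of 0.18 on the log2 scale (SE 0.037, 95% CI 0.099 to 0.25, 1.13-fold) and limma adjusted p = 0.00541. Kif11, the motor that pushes spindle poles apart, differed by 0.12, and Kif20a, another kinesin of cytokinesis, by 0.10. Prc1, which bundles the microtubules of the central spindle, differed by 0.048. None of these 3 passed the test.

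The remaining mitosis genes act on chromosomes and spindle microtubules. Top2a, which untangles sister DNA, differed by 0.13 (95% CI 0.024 to 0.24, adjusted p = 0.165). Nusap1 and Tpx2, spindle assembly proteins, differed by 0.11 and 0.063, and Mki67, the proliferation antigen that coats mitotic chromosomes, by 0.088 (95% CI -0.066 to 0.24). In all 19 of the 20 differences lay above 0, with Ccnb2 as the exception, whereas 43.8% of all genes did. Ccnb2 has 2 probe sets, and with their mean it differed by 0.028.

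**Figure D1:**
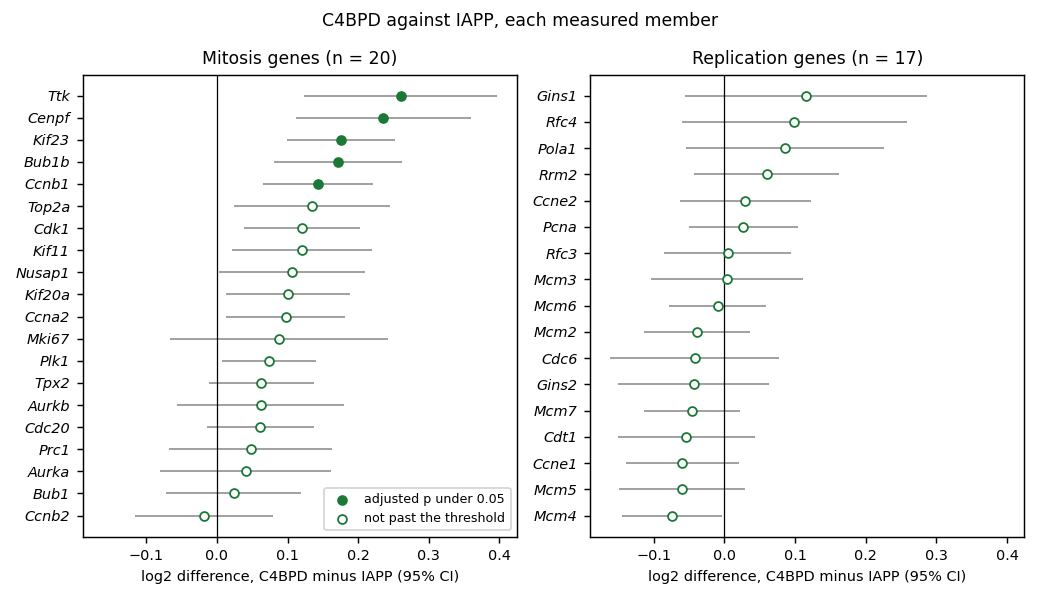
Log2 difference of C4BPD minus IAPP for each measured member (points, with 95% confidence intervals as lines), 20 mitosis genes on the left and 17 replication genes on the right, ordered by size. Filled points passed an adjusted p of 0.05: 5 mitosis genes did, at 0.14 to 0.26, and no replication gene did.

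**Figure D2:**
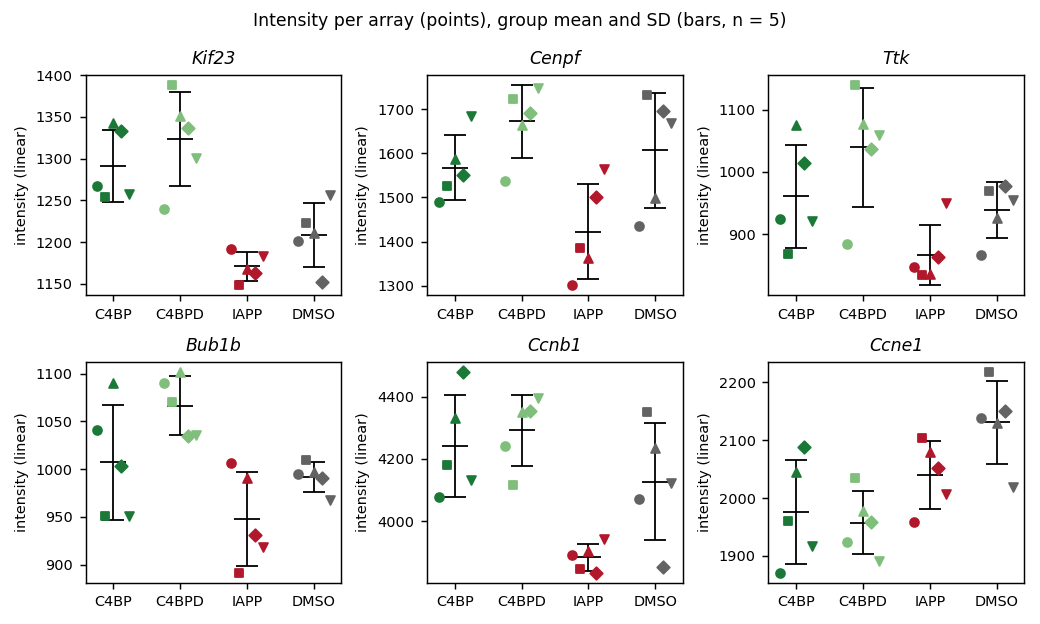
Linear intensity in each array (points) by title group, with the group mean and SD as bars (n = 5 each). Shown are the 5 mitosis genes that passed the test and Ccne1, a replication gene that did not. IAPP arrays lie lowest on average for each of the 5, and for Kif23, Ccnb1 and Bub1b no IAPP array reaches the C4BPD arrays. For Ccne1 DMSO arrays lie highest on average and C4BPD arrays lowest.

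Same-numbered arrays of these 2 groups deviated together, with a correlation over 0.1 in all 5 pairs. The fit with the number as a block is therefore given here. Such correlation was not particular to these groups. Its median was 0.17 here and 0.32 for C4BP and IAPP, where 4 of 5 pairs passed 0.1. Block results for the other comparisons are given with them or with the processing. With the block 10 mitosis genes and no replication gene rose, with 6.56% of all genes rising and 10.5% passing. The additional 5 were Cdk1 (adjusted p = 0.0157), Kif11 (0.0149), Nusap1 (0.0153), Kif20a (0.0354) and Top2a (0.0390). The count of members moved with single arrays: it was 8 without C4BPD array 1, 3 without C4BPD array 2, IAPP array 3 or IAPP array 4, 2 without C4BPD array 3 or 5, and 1 without IAPP array 2. Without all 4 arrays of number 1 it was 7, without those of number 2 it was 0, and without those of number 3, 4 or 5 it was 2, 1 and 2. Kif23 kept its call in each of the 20 fits that left out 1 array and lost it without number 2 (adjusted p = 0.0828). Of the 5 fits that left out a number, Ccnb1 lost its call in 5, Ttk in 4, and Bub1b and Cenpf in 3 each. The summed intensity of the 3 other-islet markers, mostly Gcg, ran from 10240 to 10633 in C4BPD and from 9467 to 9933 in IAPP, and that of the 5 fibroblast markers from 607 to 641 in C4BPD and from 624 to 753 in IAPP. The 4 immune markers summed to 325 to 368 in C4BPD and 317 to 360 in IAPP, and the 1 measured endothelial marker read 92.9 to 103 in C4BPD and 94.9 to 106 in IAPP. The 7 measured beta-cell markers summed to 39618 to 43826 in C4BPD and 37653 to 40272 in IAPP, ranges that overlapped. The part of any of these markers in the result was not tested. With arrays grouped by the treatment field no gene of the 18166 passed the test.

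The replication genes in the same comparison lay on both sides of 0, 8 above and 9 below. The helicase genes Mcm2 to Mcm7 differed by Mcm2 -0.039, Mcm3 0.0033, Mcm4 -0.075, Mcm5 -0.060, Mcm6 -0.0098 and Mcm7 -0.046. Mcm4 was the only one of the 37 whose C4BPD arrays all lay below the IAPP arrays, 4601 to 4973 in C4BPD and 4974 to 5224 in IAPP (adjusted p = 0.243), a pattern that 2.81% of all genes showed. No overlap in the other direction was seen for 3 members (Ccnb1, Bub1b and Kif23) and for 4.25% of all genes. Cdc6 and Cdt1, which load the helicase, differed by -0.042 and -0.054, and the GINS genes by 0.12 (Gins1) and -0.044 (Gins2). Among genes of the moving fork, Pcna, the sliding clamp, differed by 0.027, its loader subunits Rfc3 and Rfc4 by 0.0043 and 0.099, and Pola1, the primase-bound polymerase, by 0.085. The 95% intervals of the 17 genes ran from -0.16 to 0.29 and the lowest adjusted p was 0.243. A difference between the mitosis and the replication genes as sets was not tested.

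IAPP against DMSO asks what the peptide changed against its solvent. None of the 37 members passed the test, while 3.38% of all genes passed, 1.41% rising and 1.97% falling; at an unadjusted p under 0.05 stood 5 members and 12.3% of all genes. The median difference was -0.025 over the mitosis genes, 6 of 20 lying above 0, and -0.055 over the replication genes, 4 of 17 lying above 0. The genes with the most negative differences were Cenpf at -0.17 (95% CI -0.30 to -0.051, adjusted p = 0.145) and, of the replication genes, Gins1 at -0.12 and Rrm2 at -0.12. With the replicate number as a block 2 members passed, with 6.24% of all genes. Both fell, Cenpf (limma adjusted p = 0.0107) and Pola1 (-0.11, 0.0279).

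C4BPD against DMSO asks the same of C4BP without IAPP, on the likely reading. None of the 37 members passed the test (1.93% of all genes passed, 1.17% rising and 0.765% falling), with 7 members and 12.2% of all genes at an unadjusted p under 0.05. The mitosis and the replication genes lay on opposite sides of 0: 19 of 20 mitosis genes were above it and 15 of 17 replication genes below it, with medians of 0.066 and -0.045, and 45.4% of all genes above 0. The mitosis gene with the highest difference was Ttk at 0.14 (adjusted p = 0.379), followed by Kif20a at 0.14 (0.109) and Kif23 at 0.13 (0.0798). Bub1b, as given above, was the 1 member whose C4BPD arrays all exceeded the DMSO arrays, as 1.99% of all genes did. Without C4BPD array 1 the count of members past the threshold was 3 in place of 0. With the replicate number as a block 3 members passed, with 4.39% of all genes. Kif20a (limma adjusted p = 0.0102) and Kif23 (0.0495) rose and Ccne1 (0.0238) fell.

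C4BP against DMSO, likely both agents against solvent, shares its DMSO arrays with the preceding comparisons, so its signs are not independent of theirs. None of the 37 passed the test (5.96% of all genes passed, 2.72% rising and 3.23% falling), with 8 members and 16.2% of all genes at an unadjusted p under 0.05. Of the mitosis genes 17 of 20 lay above 0 (median 0.045) and of the replication genes 3 of 17 (median -0.054), with 52.4% of all genes above 0. Kif20a stood at 0.11, Aurkb at 0.11 and Prc1 at 0.10, and Gins2 at -0.12 and Ccne1 at -0.11. With the replicate number as a block 3 members passed, with 10.4% of all genes. Kif11 (limma adjusted p = 0.0393) and Kif20a (0.0173) rose and Ccne1 (0.0226) fell. Bub1 was the member whose C4BP arrays all exceeded the DMSO arrays, 3383 to 3768 in C4BP and 3199 to 3299 in DMSO, as for 2.85% of all genes, without passing the test (adjusted p = 0.331).

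C4BP against IAPP bears most directly on the study's question, as IAPP with and without C4BP on the likely reading. None of the 37 passed the test (0.606% of all genes passed, 0.374% rising and 0.231% falling), while 8 members and 7.93% of all genes had an unadjusted p under 0.05. With the replicate number as a block 1 member passed, Kif11 (limma adjusted p = 0.0321), with 1.94% of all genes. The median was 0.077 over the mitosis genes, 19 of 20 above 0, and -0.0015 over the replication genes, 8 of 17 above 0, with 0.0013 over all genes. Ttk differed by 0.15 (adjusted p = 0.559), Cenpf by 0.14 (0.507), Kif23 by 0.14 (0.102) and Kif11 by 0.13 (0.348). For Ccnb1, Plk1 and Kif23 all 5 C4BP arrays lay above all 5 IAPP arrays, as they did for 1.48% of all genes. Plk1, which drives centrosome maturation and mitotic entry, ran from 4451 to 4667 in C4BP and from 4219.7 to 4439.9 in IAPP (adjusted p = 0.297).

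C4BP against C4BPD likely sets both agents against C4BP without IAPP. None of the 37 passed the test (2.37% of all genes passed, 0.754% rising and 1.62% falling), and none had an unadjusted p under 0.05, as 13.7% of all genes had. Of the mitosis genes 5 of 20 lay above 0 (median -0.027) and of the replication genes 9 of 17 (median 0.0028), and the 95% intervals ran from -0.26 to 0.18. The interaction, C4BP minus C4BPD less IAPP minus DMSO, asks whether the effect of IAPP differed with C4BP present. No member passed it or reached an unadjusted p under 0.05, with 0.0495% of all genes passing, all of them below 0, and 3.79% at the unadjusted level. Its medians were 0.0068 over the mitosis genes and 0.032 over the replication genes. In an F test across the 4 groups 1 member passed, Kif23 (adjusted p = 0.00831), with 7.85% of all genes passing. That count was 7 without C4BPD array 1, 3 without IAPP array 5, 2 without C4BP array 1 or 3, IAPP array 1 or DMSO array 1 or 4, and 0 without all arrays of number 2, 3 or 4.

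**Figure D3:**
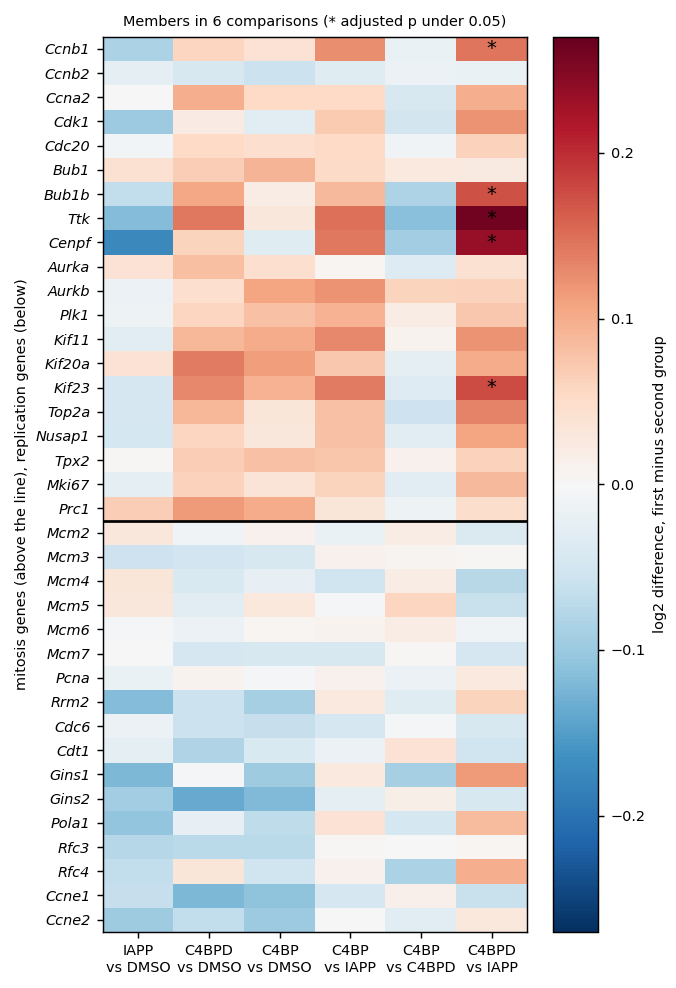
Log2 difference (first minus second group named, colour scale) of 37 members in rows, mitosis genes above the line and replication genes below it, in 6 comparisons in columns. Stars mark an adjusted p under 0.05; all 5 stand in C4BPD against IAPP, where 19 of 20 mitosis genes lie above 0. Columns share groups and are not independent.

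The replication members with the lowest p across groups were the S phase cyclins Ccne1 and Ccne2, the helicase activator Gins2 and Rrm2, the small subunit of the enzyme that makes deoxynucleotides. Ccne1 read 1871, 1960.3, 2046, 2089 and 1916 in the C4BP arrays and 1924, 2036, 1978, 1959 and 1892 in the C4BPD arrays, against 1959, 2104, 2080.1, 2051 and 2006 in the IAPP arrays and 2138, 2218, 2129, 2151 and 2019 in the DMSO arrays. The DMSO values were highest on average, at 2131 ± 71.9, with 1976 ± 90.1 in C4BP, 1958 ± 54.6 in C4BPD and 2040.0 ± 58.2 in IAPP (SD, n = 5 each), and all groups overlapped. Ccne1 differed by -0.12 in C4BPD against DMSO (limma adjusted p = 0.128) and by -0.11 in C4BP against DMSO (0.113), neither past the threshold. With the replicate number as a block Ccne1 passed in both (limma adjusted p = 0.0238 and 0.0226), with 4.39% and 10.4% of all genes passing.

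Ccne2 read 3199, 3285, 3521, 3488 and 3115 in the C4BP arrays and 3110.0, 3533, 3468, 3438 and 3416 in the C4BPD arrays, against 3365, 3089, 3325, 3469.9 and 3369.8 in the IAPP arrays and 3435, 3581, 3679, 3583 and 3478 in the DMSO arrays. Here too every group overlapped with DMSO, and C4BPD array 1 stood below the other C4BPD arrays. The difference of C4BP against DMSO was -0.098 (limma adjusted p = 0.271). Gins2 read 506, 577, 527, 566 and 480.0 in the C4BP arrays and 538, 501, 537, 542 and 502 in the C4BPD arrays, against 519.8, 547, 543, 519.8 and 572 in the IAPP arrays and 564, 610.1, 564, 604 and 541 in the DMSO arrays. The DMSO mean of 577 ± 29.3 was the highest of the 4, with 524 ± 20.7 in C4BPD, a difference of -0.14 (limma adjusted p = 0.235).

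Rrm2 read 5138, 4431, 5240.2, 5289 and 4871 in the C4BP arrays and 5221, 4855, 5236, 5041 and 5152 in the C4BPD arrays, against 5003, 4835, 4802, 4801 and 5029 in the IAPP arrays and 5487, 5551, 5458, 5312 and 4760.2 in the DMSO arrays. In DMSO 4 of the 5 arrays exceeded every array of the other groups, and DMSO array 5 lay below all but C4BP array 2. Rrm2 averaged 4894 ± 112 in IAPP and 5313 ± 321 in DMSO (SD, n = 5 each), a difference of -0.12 with limma adjusted p = 0.306.

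Averaged per array on the log2 scale, each gene first centred on its mean over the 20 arrays, the mitosis genes stood at -0.028, -0.015, 0.064, 0.078 and 0.029 in the C4BP arrays and -0.051, 0.079, 0.068, 0.076 and 0.086 in the C4BPD arrays. They stood at -0.077, -0.073, -0.063, -0.036 and -0.020 in the IAPP arrays and -0.078, -3.39e-05, -0.030, -0.0057 and -0.0041 in the DMSO arrays. All IAPP and DMSO arrays lay below 0, and 4 of 5 C4BPD arrays lay above 0.06 while C4BPD array 1 lay with IAPP. The replication genes stood at 0.0041, -0.056, 0.022, 0.027 and -0.079 in C4BP, 0.0015, -0.0010, 0.016, -0.010 and -0.055 in C4BPD, -0.010, -0.019, -0.016, -0.011 and 0.0088 in IAPP and 0.027, 0.062, 0.052, 0.053 and -0.016 in DMSO. For replication the DMSO array was the highest of the 4 groups at numbers 1 to 4, and array 5 was the lowest of its group in C4BP, C4BPD and DMSO. These means are given as a description, with no test.

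**Figure D4:**
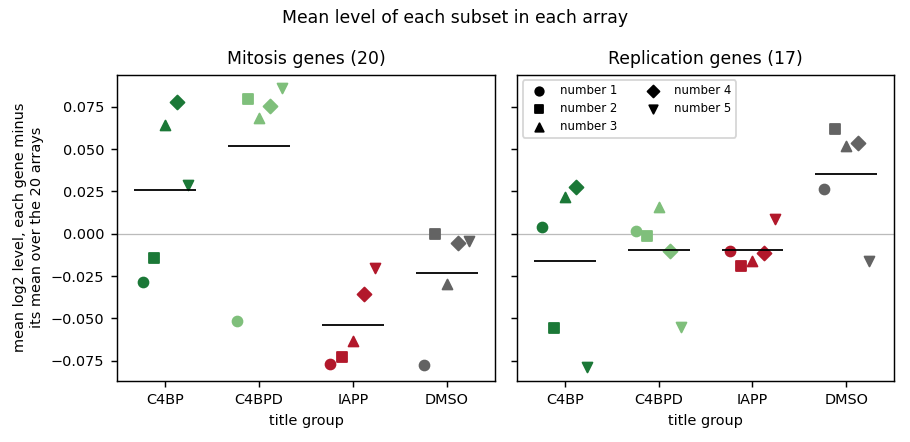
Mean centred log2 level of the 20 mitosis genes (left) and 17 replication genes (right) in each array, by title group, with the replicate number as marker shape. Mitosis means run from -0.077 to -0.020 in IAPP and from -0.051 to 0.086 in C4BPD; replication means run from -0.055 to 0.016 in C4BPD and from -0.016 to 0.062 in DMSO.

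After the group means were removed, the levels of 2 mitosis genes correlated across the 20 arrays with a median r of 0.33 over 190 gene pairs (-0.64 to 0.88), those of 2 replication genes with 0.15 over 136 pairs, and those of 1 gene of each kind with 0.070 over 340 pairs. All pairs share the same arrays and their scaling. Differences between replicate numbers, described next, were not removed, and their part in these correlations was not tested. These are descriptions of 20 arrays, and gene pairs are not independent.

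Each replicate number is present once in every group. In an F test across the 5 numbers, fitted beside the groups, 7 of 37 members passed (18.9%), 6 mitosis genes and 1 replication gene, with 15.7% of all genes passing. The members' share is near that of all genes and says nothing particular about them as a whole. By subset it was 30% of the 20 mitosis genes and 5.88% of the 17 replication genes, a difference that was not tested. The 7 were Mki67, Nusap1, Aurkb, Kif11, Cenpf, Prc1 and Pola1. The labels do not say what a number stands for.

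Mki67 read 4344, 4584, 4616, 5279 and 5448 in the C4BP arrays and 4388, 4974, 4812, 5031 and 5523 in the C4BPD arrays, against 4130.3, 4604, 4554, 5035 and 4938 in the IAPP arrays and 4334, 4793, 4397, 4915 and 5238 in the DMSO arrays. By number 1 to 5 Mki67 averaged 4299, 4739, 4595, 5065 and 5287 (n = 4 each, limma F test adjusted p = 0.000529), with number 1 lowest in each group. Nusap1 read 4192, 4490.1, 4514, 4976 and 4662 in the C4BP arrays and 4185, 4762, 4652, 4879.5 and 4792 in the C4BPD arrays, against 4105, 4298, 4342, 4467 and 4374 in the IAPP arrays and 4129, 4473, 4479, 4692 and 4553 in the DMSO arrays. Nusap1 averaged 4153, 4506, 4497, 4754 and 4595 by number (adjusted p = 0.00409), with number 1 lowest in every group too.

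Pola1 read 2875, 3225, 3106, 3267 and 3242 in the C4BP arrays and 2771, 3375, 3201, 3482 and 3445 in the C4BPD arrays, against 2742, 3205, 2928, 3228 and 3218 in the IAPP arrays and 2929, 3365, 3172, 3474 and 3560.4 in the DMSO arrays. Pola1 averaged 2829, 3292, 3102, 3363 and 3366 by number (limma F test adjusted p = 0.000353), with number 1 lowest in every group. The kinase Aurkb averaged 3373, 3753, 3639, 3778 and 3898 by number (adjusted p = 0.0140), Kif11 2636, 2867, 2809, 2893 and 2955 (0.0187) and Cenpf 1441, 1592, 1528, 1609 and 1666 (0.0214), each lowest at number 1. Prc1 ran otherwise, with 3878, 3950.2, 4004, 3682 and 3564 by number (adjusted p = 0.0402), lowest at number 5.

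Rfc4 read 1637, 1343, 1608, 1763 and 1545 in the C4BP arrays and 1734, 1509.6, 1885, 1662 and 1584 in the C4BPD arrays, against 1589.8, 1418, 1555, 1647 and 1597 in the IAPP arrays and 1729, 1628, 1857, 1565 and 1418 in the DMSO arrays. Rfc4 had the second lowest p of the replication genes across numbers without passing (limma F test adjusted p = 0.0900), and number 2 was lowest in C4BP, C4BPD and IAPP. The median intensity of the number 1 arrays was 171 to 175 and that of the other 16 arrays 176 to 183. With each array centred on its median 5 members passed across numbers, with 18% of all genes. Without number 5 the count was 4. Without number 1 none of the 37 passed, and 68 genes in all did in place of 2860.

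**Figure D5:**
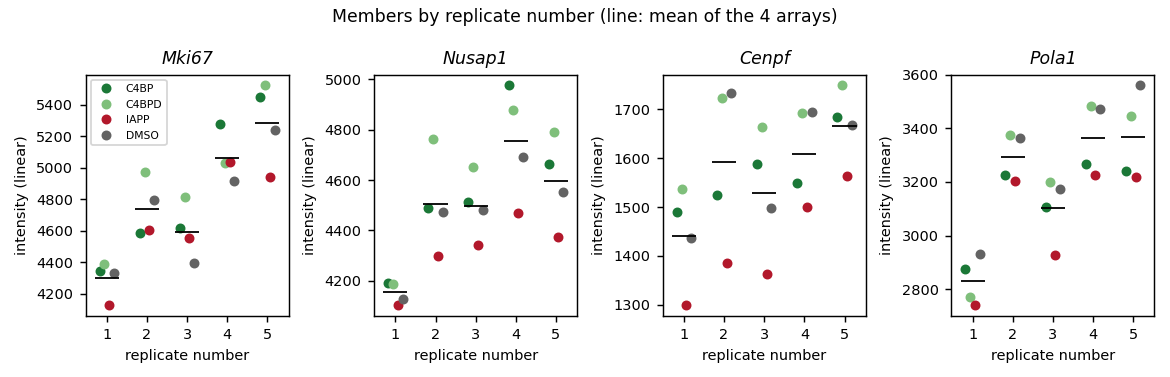
Linear intensity of Mki67, Nusap1, Cenpf and Pola1 in each array against replicate number, coloured by title group, with the mean of the 4 arrays of a number as a line. Number 1 has the lowest mean for all 4 genes, for Mki67 4299 against 4595 to 5287 at the others; the vertical axes do not start at 0.

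Related genes outside the list were read from 3 further lists, also chosen with earlier results of these data known. Of 47 other mitotic genes 42 were measured. In C4BPD against IAPP 9 of them rose and none fell, with 3.64% of all genes rising and 1.82% falling, and the median was 0.11. The 4 with the lowest p were Pbk, a mitotic kinase, with 2725 ± 114 in C4BPD and 2306 ± 114 in IAPP (0.24, adjusted p = 0.00129), Nuf2 and Ndc80, partners in the kinetochore complex that grips microtubules (0.21, adjusted p = 0.00171, and 0.19, adjusted p = 0.00377), and Ccnf, cyclin F (0.18, adjusted p = 0.00881). Nuf2 also rose in C4BPD against DMSO (0.15, adjusted p = 0.0458), a call that was lost in 17 of the 20 fits leaving out 1 array. Dlgap5, a spindle protein, rose in C4BP against DMSO (0.14, adjusted p = 0.0395), and lost the call in 6 of them. Over all genes 1.17% rose in C4BPD against DMSO and 2.72% in C4BP against DMSO. Without all arrays of a number the Nuf2 and Dlgap5 calls against DMSO were lost in 5 and 4 of 5 fits, and of the calls against IAPP Pbk and Nuf2 lost none, Ndc80 1 and Ccnf 2. In the other 3 pairwise comparisons none of the 42 passed the test.

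Of 43 other replication genes 39 were measured. In IAPP against DMSO 3 fell and none rose, with 1.97% of all genes falling. Dut, which keeps uracil out of DNA precursors, averaged 1334 ± 22.8 in IAPP and 1524 ± 81.2 in DMSO (-0.19, adjusted p = 0.0152). Rfc5, a clamp loader subunit, fell as well (-0.15, adjusted p = 0.0273), as did Tyms, thymidylate synthase (-0.13, adjusted p = 0.0372). In C4BP against DMSO Dut (-0.19, adjusted p = 0.00851), Gins3 (-0.21, adjusted p = 0.0279) and Rfc5 (-0.13, adjusted p = 0.0454) fell and Dbf4, which activates the kinase that fires origins, rose (0.15, adjusted p = 0.0279), with 3.23% of all genes falling and 2.72% rising. In fits leaving out 1 array of 20, the IAPP calls of Dut, Rfc5 and Tyms against DMSO were lost in 2, 6 and 8, and the C4BP calls of Dut, Gins3, Rfc5 and Dbf4 in 0, 4, 14 and 5. In the 5 fits leaving out all arrays of a number, the IAPP calls were lost in 3, 4 and 5, and the C4BP calls in 3, 3, 4 and 5. In C4BPD against DMSO and in C4BP against IAPP none of the 39 passed the test.

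Tyms averaged 3179 ± 90.7 in C4BP, 3499 ± 125 in C4BPD, 3107 ± 54.2 in IAPP and 3408 ± 109 in DMSO (SD, n = 5 each). It was higher in C4BPD than in IAPP (0.17, adjusted p = 0.00426) and lower in C4BP than in C4BPD (-0.14, adjusted p = 0.0364). Chaf1b, which assembles nucleosomes behind the fork, was lower in C4BPD than in IAPP (-0.18, adjusted p = 0.0374). The last 2 calls were lost in 8 and 6 of the fits leaving out 1 array and in all 5 leaving out a number, and the Tyms call against IAPP in 0 and 1. The medians of the 39 stayed between -0.022 and 0.020 in all 6 pairwise comparisons.

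Of 25 genes of G1 control 23 were measured. Myc, a transcription factor of cell growth, rose in IAPP against DMSO with 1234 ± 51.4 in IAPP and 1062 ± 96.6 in DMSO (0.22, adjusted p = 0.0335) and fell in C4BPD against IAPP (-0.25, adjusted p = 0.00909). Cdkn2c, an inhibitor of Cdk4 and Cdk6 (0.18, adjusted p = 0.0130), and Rbl2, the p130 pocket protein of DREAM (0.16, adjusted p = 0.0135), rose in C4BPD against IAPP. In that comparison 2 of the 23 rose and 1 fell, with 3.64% of all genes rising and 1.82% falling. Without all arrays of a number the Cdkn2c, Rbl2 and Myc calls there were lost in 3, 4 and 2 of 5 fits (adjusted p up to 0.0877, 0.111 and 0.0776). Ccnd2, cyclin D2, fell in C4BP against DMSO with 1891 ± 235 in C4BP and 2467 ± 279 in DMSO (-0.39, adjusted p = 0.0481), a call lost in 12 of the 20 fits leaving out 1 array. The rise of Myc in IAPP against DMSO was lost in 5 of those fits and, like the fall of Ccnd2, in all 5 fits leaving out a number. In the other 3 pairwise comparisons none of the 23 passed the test.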

How the data were processed

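The deposited values are linear intensities per probe set of 20 Affymetrix arrays, made with Affymetrix Expression Console per the submitters' processing notes; its version, background step and normalization are not stated in those sources. They were taken to log2 with no further scaling. Of 36495 non-control probe sets, those with exactly 1 symbol in the platform annotation gave 18166 genes, the brightest probe set standing for each (291 genes had more than 1). Groups came from the array titles. limma 3.58.1 in R 4.3.3 fitted 4 group means with 16 residual degrees of freedom and tested 6 pairwise differences, the interaction and 2 F tests. The fit was also run on simulated data with independent noise for each gene and array. Its outcome is not given and does not bear on the results. Members and lists were chosen with earlier results of these data known. Values per array are given for each member past the threshold in a pairwise comparison, the interaction or the F test across groups and, among the mitosis and among the replication genes, for the 4 members with the lowest F p across groups and the 2 with the lowest across numbers; of the related lists at most 4 genes past the threshold are named per comparison.

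Replicate numbers stand in the titles. Deviations of same-numbered arrays from their group means correlated over 0.1 in all 5 pairs for C4BPD and IAPP (0.15 to 0.31), so the block is given in full there. In the other 5 comparisons 2 to 4 of 5 pairs did. Median correlations were 0.17 for C4BPD and IAPP, 0.32 for C4BP and IAPP and 0.095 to 0.18 in the others. Alternatives were other array scalings, a filter on dim genes, an added constant, other probe sets, array weights, other variance settings, the block, the compared groups alone, the treatment field as grouping, and leaving out arrays. Array number limits the precision. Figures were drawn with matplotlib 3.10.9.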

Additional observations from a re-analysis of the deposited data

Results flagged for a closer look

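In 60 groups of 5 values, those of the 13 members with values per array and of the 2 subset means, the highest or lowest array was set against the other 4. In 3 groups 1 array stood apart by more than Dixon's 95% limit, which chance passes in about 1 of 20 groups. Ttk read 949.6 in IAPP array 5, with the other IAPP arrays at 833.5 to 863.7. Ccne2 read 3110.0 in C4BPD array 1, with the other C4BPD arrays at 3416 to 3533. The mean centred log2 level of the mitosis genes was -0.051 in C4BPD array 1, with the other C4BPD arrays at 0.068 to 0.086. Without C4BPD array 1 the median difference of the mitosis genes in C4BPD against IAPP was 0.13 in place of 0.099.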

How the results depend on the processing

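No gene past the threshold changed sign under the alternatives run for single genes. Some members short of it did in C4BPD against IAPP. With the mean over probe sets Ccnb2 stood at 0.028 and Mcm3 at -0.0065. Rfc3 changed sign after quantile normalization and with array weights, and Mcm6 with array weights. In the F test across groups 1 member passed; it was 2 with arrays centred on their median, 2 after quantile normalization, 5 with dim genes left out, 4 with 50 added before log2, 9 with array weights, 5 with trend and robust variance, and 0 to 7 with arrays left out. Across replicate numbers 7 passed; it was 11 after quantile normalization, 13 with dim genes left out, 14 with trend and robust variance, and 0 to 8 with arrays left out, 0 being without number 1. In C4BPD against IAPP 5 passed; it was 9 with array weights and 0 to 8 with arrays left out. In C4BPD against DMSO none passed; it was 1 with dim genes left out, 1 with 50 added, 1 with trend and robust variance, 3 with array weights, and 0 to 3 with arrays left out, 3 being without C4BPD array 1. In C4BP against IAPP 1 passed with dim genes left out, and in IAPP against DMSO 1 with array weights.

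With the replicate block 10 members passed in C4BPD against IAPP (10.5% of all genes) and 12 in the F test across groups (14.3%). Against DMSO the block gave 2 in IAPP (6.24% of all genes passed), 3 in C4BPD (4.39%) and 3 in C4BP (10.4%), in place of 0 each. It gave 1 in C4BP against IAPP (1.94%), also in place of 0, and 0 in C4BP against C4BPD (5.27%). With groups from the treatment field, 0 members passed in C4BPD against IAPP, 0 in the F test across groups and 2 across numbers. The medians under that grouping, some of opposite sign, were, for mitosis genes, 0.011 in C4BPD against DMSO, -0.026 in C4BP against DMSO, -0.0055 in C4BP against IAPP and 0.020 in C4BPD against IAPP. For replication genes they were 0.0064 in IAPP against DMSO, 0.024 in C4BPD against DMSO, 0.019 in C4BP against DMSO, 0.023 in C4BPD against IAPP and -0.014 in the interaction. By construction that grouping puts most arrays in other groups; other causes were not tested.

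Over all genes, grouping by the treatment field gave 0 in all 6 pairwise comparisons, the interaction and the F test across groups, and 828 across numbers. Under the other alternatives the count of 992 in C4BPD against IAPP ran from 483 to 1908, and likewise 614 in IAPP against DMSO from 235 to 1133, 351 in C4BPD against DMSO from 151 to 797, 1082 in C4BP against DMSO from 615 to 1884, 110 in C4BP against IAPP from 18 to 352, 431 in C4BP against C4BPD from 200 to 958, 9 in the interaction from 0 to 18, 1426 across groups from 716 to 2604 and 2860 across numbers from 68 to 4063. These lows came without all arrays of a number, except in the interaction, where all probe sets also gave 0; the highs came with the block, or across numbers with trend and robust variance. Among members, beyond left-out arrays, Ccnb1 was lost in C4BPD against IAPP over all probe sets (adjusted p = 0.0558), and Bub1b with arrays centred (0.0884) and with the compared groups alone (0.0515). Of the related calls, centring lost Rfc5 in IAPP and in C4BP against DMSO, Tyms in IAPP against DMSO and in C4BP against C4BPD, Nuf2 against DMSO, Dlgap5, Dbf4, Gins3, Ccnd2 and Chaf1b (adjusted p = 0.0611 to 0.150). Testing all probe sets lost these and Myc against DMSO (0.0592 to 0.110), array weights Dlgap5, Rfc5 against DMSO in C4BP and Ccnd2 (0.0665 to 0.0827), and the compared groups alone all but Rfc5 in IAPP and Ccnd2 among them, and Dut in C4BP against DMSO (0.0606 to 0.195).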

Other observations

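The related lists also differed across replicate numbers. In the F test across the 5 numbers 15 of 42 other mitotic genes passed (35.7%), 9 of 39 other replication genes (23.1%) and 10 of 23 genes of G1 control (43.5%), with 15.7% of all genes passing.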
